A study of Mus musculus with 6 samples.

Results

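The small leucine-rich proteoglycans are secreted matrix proteins built from leucine-rich repeats, and 10 genes of the family were followed here in mouse knee articular cartilage: Dcn, Bgn, Aspn, Fmod, Lum, Prelp, Omd, Ogn, Epyc and Chad. They were taken by name from the 55401 genes of a read count table, after Ensembl identifiers had been matched to GRCm38 symbols, and all 10 were found. RNA was sequenced from 2 groups of 3 libraries. The CTRL libraries are labelled WT, and the CKO libraries are labelled as adseverin knockout. Adseverin, the product of Scin, cuts actin filaments and caps their ends. All mice, controls included, had received tamoxifen daily for 5 days from 8 weeks of age at 1.5 mg per 10 g body weight, and cartilage was taken at 10 weeks. The labels name the cells as native articular chondrocytes, while the sources used here do not give the Cre driver, the deleted exons or the number of mice behind each library. The p-values therefore cover the spread between these libraries, part of which may be technical.

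Most family members wrap around or bind collagen fibrils through the curved face of their repeat domain and limit how thick the fibrils grow. Many carry chondroitin, dermatan or keratan sulfate chains, and several bind growth factors of the TGF-beta family. In cartilage, decorin, biglycan and fibromodulin sit on the collagen network, and chondroadherin links collagen to chondrocyte integrins. Osteomodulin is best known from mineralised tissue, and lumican and asporin are also abundant in tendon and other fibrous tissue. Epiphycan is a product of growth plate cartilage.

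The family genes lie in groups on the GRCm38 genome. On chromosome 10, Dcn, Lum, Kera and Epyc follow each other between 97479609 and 97682454 with no other protein-coding gene between them. On chromosome 13, Ecm2, Aspn, Omd and Ogn do so between 49504810 and 49624501, and all 4 lie within the span of Cenpp, a centromere protein gene read from the other strand. On chromosome 1, Optc, Prelp and Fmod stand side by side between 133897199 and 134048277. Chad (chromosome 11, 94565047 to 94569127) lies within the span of Acsf2, an acyl-CoA synthetase gene of the other strand, and Bgn (chromosome X, 73483602 to 73495933) has no family gene beside it. Exons shared with other genes covered 9.68% of the exon bases of Prelp, 40.6% of those of Epyc and 0.297% of those of Aspn. Whether the counting used strand is not known from the sources used here. The effect of shared exons on the counts of either gene was therefore not determined. The partner of Prelp, Gm15851, had 1 to 8 reads per library, the partner of Epyc, Gm10754, was at 0 reads in all 6, and Cenpp was at 10.0 to 13.2 CPM (counts scaled to a common library size with TMM factors).

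The promoters of Chad, the most abundant member, and of the chromosome 13 neighbours Aspn, Omd and Ogn are shown because Omd and Ogn had higher mean levels in CKO while Aspn, next to them, varied most. The 250 bases before each start were taken from RefSeq (GRCm38.p6), for Chad at chr11:94564797-94565046, Aspn at chr13:49544193-49544442, Omd at chr13:49582212-49582461 and Ogn at chr13:49607765-49608014, all on the plus strand and written 5′ to 3′. Capitals mark matches on either strand to TATAAA (the core of a TATA box), AACAAT (a SOX-type core), TGTGGT (a RUNX-type core), GGGCGG (a GC box) or the CArG box of serum response factor; a capital run can hold overlapping matches.
Chad: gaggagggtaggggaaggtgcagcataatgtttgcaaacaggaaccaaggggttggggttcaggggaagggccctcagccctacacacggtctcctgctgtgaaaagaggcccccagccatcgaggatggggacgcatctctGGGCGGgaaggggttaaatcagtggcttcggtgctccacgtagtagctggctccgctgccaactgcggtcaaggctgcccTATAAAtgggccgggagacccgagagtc
Aspn: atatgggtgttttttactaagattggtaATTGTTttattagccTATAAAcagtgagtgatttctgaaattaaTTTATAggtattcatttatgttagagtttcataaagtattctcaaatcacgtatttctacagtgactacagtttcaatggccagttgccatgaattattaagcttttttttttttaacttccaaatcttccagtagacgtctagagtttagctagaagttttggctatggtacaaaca
Omd: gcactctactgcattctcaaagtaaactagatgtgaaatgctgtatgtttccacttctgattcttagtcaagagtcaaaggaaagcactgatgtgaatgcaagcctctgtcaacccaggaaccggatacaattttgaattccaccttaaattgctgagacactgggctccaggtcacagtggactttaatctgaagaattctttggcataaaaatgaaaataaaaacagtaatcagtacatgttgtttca
Ogn: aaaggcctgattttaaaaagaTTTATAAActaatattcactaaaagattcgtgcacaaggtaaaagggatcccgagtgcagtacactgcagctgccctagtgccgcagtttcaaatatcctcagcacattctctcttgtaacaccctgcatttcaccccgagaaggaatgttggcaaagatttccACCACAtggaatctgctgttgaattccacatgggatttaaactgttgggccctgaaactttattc
In the Chad promoter TATAAA lay 28 to 23 bases before the start, and GGGCGG lay 108 to 103 bases before it. The TATAAA matches of Aspn and Ogn began 178 to 229 bases before the start, and the Omd window held none of the 5 motifs. RefSeq entries were matched for 8 of the 10 members with 9 starts, Dcn and Lum being the others. Over those 9 starts TATAAA was found in 3, AACAAT in 4, TGTGGT in 1, GGGCGG in 2 and the CArG box in 0. The AACAAT starts were those of Prelp and Aspn and both starts of Epyc, a gene with few reads here. Of all 32851 promoters of this length the shares were 12.4%, 9.42%, 14.0%, 32.7% and 1.47%.

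The family was a large part of the transcriptome of this tissue. It took 3.85% to 4.19% of all reads in the CTRL libraries and 3.93% to 4.14% in the CKO libraries. Chad alone took 2.18% to 2.48% of the reads and ranked number 3 of the 16260 genes tested by mean CPM, with Dcn at number 9, Prelp at 27, Fmod at 37, Omd at 43 and Bgn at 65. Lum ranked 105, Ogn 387 and Aspn 2464. Summed over the 10 genes the level was 39836 ± 2323 CPM in CTRL and 40721 ± 1457 CPM in CKO (mean ± SD, n = 3 per group). The groups overlapped (two-sided exact permutation test, p = 0.8, where 3 against 3 libraries cannot go below 0.1).

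**Figure D1:**
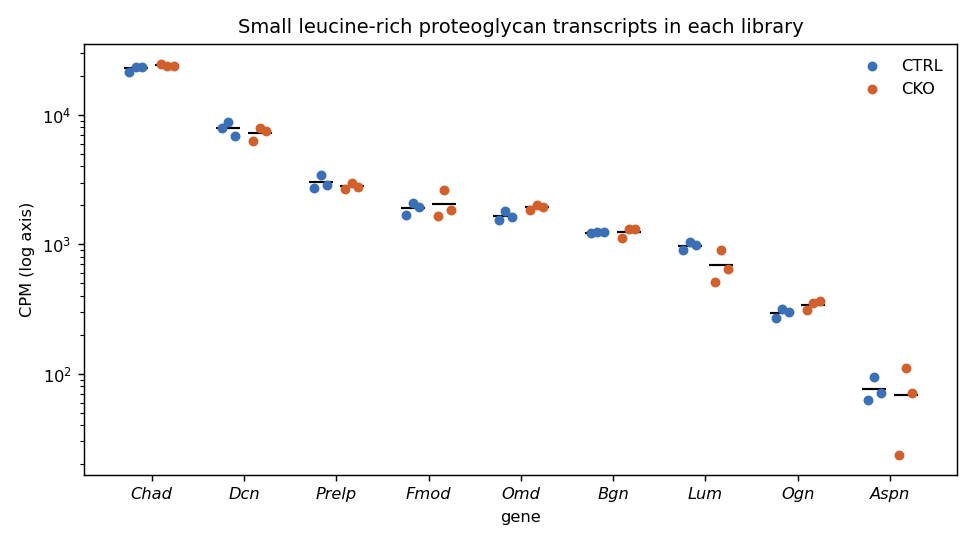
CPM on a log axis for 9 members in each library, with CTRL in blue, CKO in orange and a bar at each group mean (n = 3). Epyc is left out because it did not pass the filter on low counts. Chad stands near 23563 CPM on average and Aspn near 72.3 CPM, and 2 of the 3 CKO points of Lum lie below all of its CTRL points.

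Scaled by length, Chad was the most abundant member, and the share of Dcn after it depended on the length used. With reads divided by the length of the longest principal transcript in kilobases (RPKM), the median over the 6 libraries was 14142 RPKM for Chad and 4390 RPKM for Dcn. The next genes were Prelp at 782 RPKM, Omd at 812 RPKM, Fmod at 606 RPKM and Bgn at 512 RPKM. In the order of mean levels the ranges over libraries overlapped for Prelp and Omd, for Omd and Fmod and for Fmod and Bgn. Those of Bgn and Lum did not. Within every library Omd lay above Fmod, Fmod above Bgn and Bgn above Lum. Prelp was above Omd in 3 of 6 libraries, so their order was not resolved. Lum followed at 370 RPKM, Ogn at 123 RPKM and Aspn at 30.6 RPKM, without overlap between neighbours. Chad made up 62.2% to 69.5% of the summed RPKM of a library and Dcn 16.8% to 22.2%. The principal transcript was chosen after seeing the data. With the union of all annotated exons Chad made up 75.0% to 80.1% of the sum and Dcn 5.84% to 8.07%, next to mean shares of 4.42% for Prelp and 4.37% for Omd. With that length Dcn had a mean of 1296 RPKM in place of 4303 RPKM and Bgn 204 RPKM in place of 513 RPKM, which put Bgn below Lum.

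**Figure D2:**
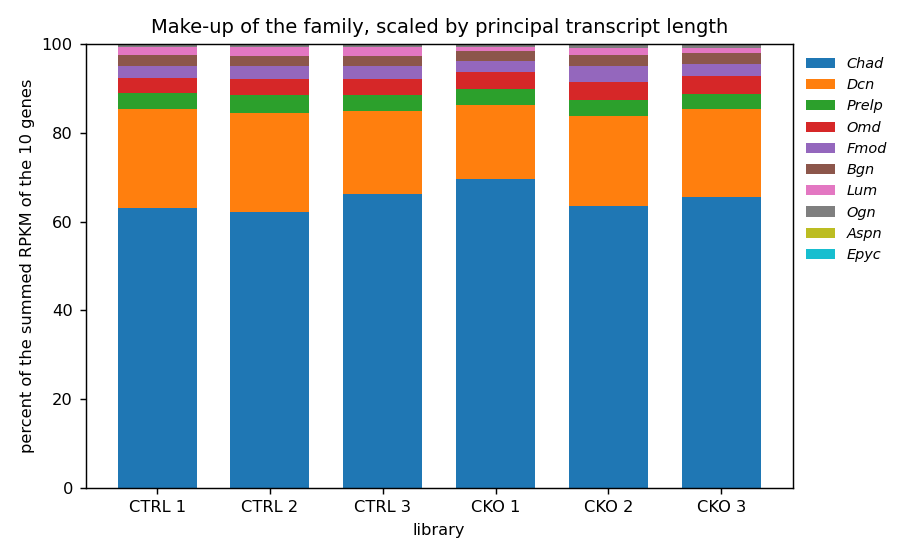
Share of each gene in the summed RPKM of the 10 genes (percent, stacked bars, 1 bar per library), scaled by principal transcript length. Chad fills 62.2% to 69.5% of every bar and Dcn 16.8% to 22.2%, and the layers of Ogn, Aspn and Epyc are too thin to compare by eye.

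Of the 10 members 9 passed the filter on low counts, and 0 of the 9 differed between the groups at an adjusted p under 0.05 (edgeR quasi-likelihood test, Benjamini-Hochberg over 16260 genes), nor did any with DESeq2 or limma-voom. Over all genes 0.00615% were called, which is 1 gene, Scin itself. Scin stood at 186, 185 and 219 CPM in CTRL and at 39.1, 29.9 and 29.4 CPM in CKO, lower in every library labelled as knockout. Of the 9 tested members, 5 had a log2 fold change (CKO minus CTRL) above 0 and 4 had one below 0. Their median was 0.02 beside 0.00 over all genes tested, where 50.6% of genes lay above 0. Before adjustment 2 members, Omd and Lum, had a p under 0.05, beside 6.5% of all genes.

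**Figure D3:**
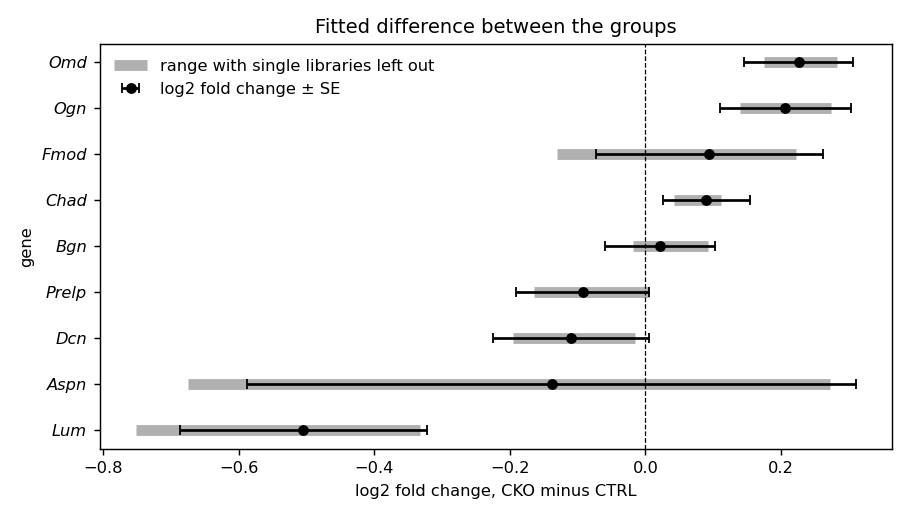
Log2 fold change of each tested member (CKO minus CTRL; point and SE, n = 3 per group) with a grey bar for the range when single libraries are left out. Lum lies at -0.51 and Omd at 0.23, and the grey bars of Aspn, Fmod, Bgn and Prelp cross 0.

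Among the members that carry chondroitin or dermatan sulfate, Dcn encodes decorin, which binds collagen and TGF-beta. It measured 7902, 8766 and 6885 CPM in CTRL and 6314, 7984 and 7532 CPM in CKO. The groups overlapped, with CKO 1 the lowest of the 6 libraries, and the log2 fold change was -0.11 ± 0.11 (SE). Bgn encodes biglycan, the closest relative of decorin. Its level was 1222, 1238 and 1237 CPM in CTRL and 1127, 1303 and 1323 CPM in CKO. The CTRL libraries lay within 1.01-fold of each other and inside the CKO range, and the log2 fold change was 0.02 ± 0.08.

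Aspn encodes asporin, a relative of decorin with an aspartate-rich start that binds collagen and TGF-beta. It was measured at 62.5, 94.0 and 71.0 CPM in CTRL and 23.5, 111 and 71.4 CPM in CKO. CKO 1 was the lowest and CKO 2 the highest of all 6, a 4.74-fold range within the CKO group against 1.50-fold within CTRL. Its within-group SD of 0.84 on the log2 scale was larger than that of 99.8% of the 3587 genes with a mean of at least 50 CPM, whose median was 0.13. The log2 fold change of -0.14 ± 0.45 turned to 0.27 with CKO 1 left out and to -0.68 with CKO 2 left out.

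Lum encodes lumican, a keratan sulfate proteoglycan that regulates collagen fibrils. It measured 903, 1045 and 988 CPM in CTRL and 515, 906 and 647 CPM in CKO. CKO 1 and CKO 3 lay below all CTRL libraries, while CKO 2 lay just above CTRL 1, so the groups overlapped by a narrow margin. The log2 fold change was -0.51 ± 0.18, a CKO level of 0.705 times that of CTRL (unadjusted p = 0.0232, edgeR adjusted p = 0.700). It was -0.33 without CKO 1 and -0.75 without CKO 2. The adjusted p from DESeq2, fitted to the unfiltered counts, was 0.192.

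Fmod encodes fibromodulin, which shares a collagen binding site with lumican. Its level was 1685, 2102 and 1951 CPM in CTRL and 1667, 2629 and 1828 CPM in CKO. CKO 1 was the lowest and CKO 2 the highest of the 6 libraries, and the log2 fold change of 0.09 ± 0.17 became -0.13 without CKO 2. Prelp encodes a heparin-binding member that anchors basement membranes to connective tissue. It measured 2718, 3427 and 2876 CPM in CTRL and 2690, 2991 and 2781 CPM in CKO, with overlapping groups and a log2 fold change of -0.09 ± 0.10.

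Omd encodes osteomodulin, a keratan sulfate proteoglycan of mineralised tissue. It measured 1544, 1794 and 1620 CPM in CTRL and 1856, 1996 and 1946 CPM in CKO. Every CKO library lay above every CTRL library. The log2 fold change was 0.23 ± 0.08, a level 1.17 times that of CTRL (unadjusted p = 0.0211, edgeR adjusted p = 0.700), and it stayed between 0.17 and 0.28 when single libraries were left out. Ogn, the next gene on chromosome 13, encodes osteoglycin, also called mimecan. Its level was 271, 319 and 301 CPM in CTRL and 310, 352 and 366 CPM in CKO. CKO 1 lay inside the CTRL range and the other CKO libraries lay above it, with a log2 fold change of 0.21 ± 0.10.

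Chad encodes chondroadherin, a cartilage protein without a glycosaminoglycan chain that binds collagen and integrins. It measured 21437, 23551 and 23498 CPM in CTRL and 24908, 24018 and 23966 CPM in CKO. The groups did not overlap, but the log2 fold change was 0.09 ± 0.06, and the within-group SD was 0.06 on the log2 scale, with a smaller SD in 8.61% of genes of at least 50 CPM. Omd and Chad were thus 2 of 9 members without overlap between the groups, beside 12.3% of all genes. Epyc, which encodes epiphycan, did not pass the filter. It had 1, 0 and 0 reads in CTRL and 12, 44 and 0 reads in CKO. Reads came almost all from CKO 1 and CKO 2. A count of 0 allows a level of up to 0.132 CPM in CTRL 2, 0.114 CPM in CTRL 3 and 0.126 CPM in CKO 3, for counting error only.

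**Figure D4:**
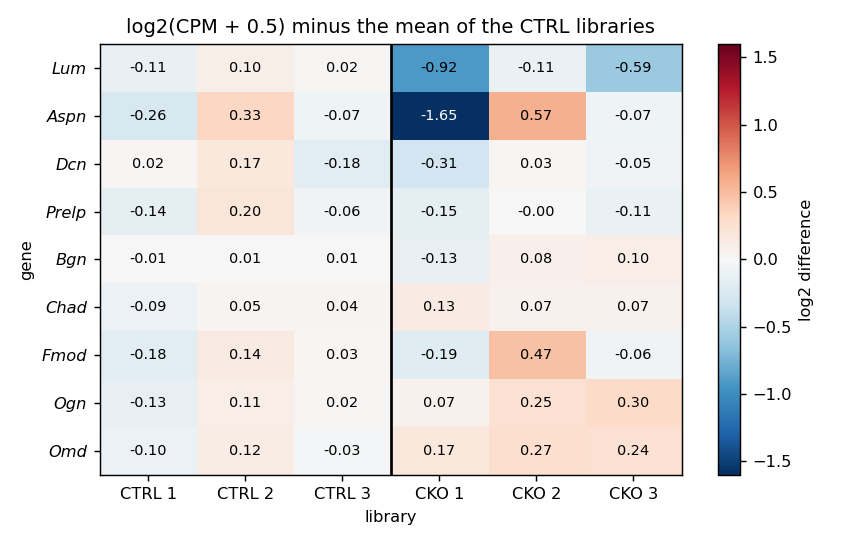
Difference of each library from the CTRL mean of the gene on the scale log2(CPM + 0.5), for 9 members (rows) in 6 libraries (columns), red for higher and blue for lower. CKO 1 is at -0.92 for Lum and -1.65 for Aspn, CKO 2 is at 0.57 for Aspn and 0.47 for Fmod, and the CKO values of Omd and Ogn lie between 0.07 and 0.30.

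Ratios between members within a library do not depend on how libraries are scaled, and they were examined after the levels had been seen. For Fmod to Lum the ratio of CPM was 1.87, 2.01 and 1.97 in CTRL and 3.24, 2.90 and 2.83 in CKO. The groups were separated by more than the spread within either, and the difference of 0.61 on the log2 scale lay between 0.55 and 0.65 when any 1 library was dropped (two-sided exact permutation p = 0.1, the smallest that 3 against 3 libraries allow). For Omd to Lum the ratio was 1.71, 1.72 and 1.64 in CTRL and 3.60, 2.20 and 3.01 in CKO. In CKO 2, where Lum was near its CTRL level, this ratio was the lowest of the CKO group. For Dcn to Bgn, by contrast, the groups overlapped, with a difference of -0.13 on the log2 scale. Of the 36 member pairs, 13 had ratios that did not overlap between the groups, beside 16.5% of all pairs of the 3587 genes with at least 50 CPM. Lum was in 7 of the 13, and 7 of its 8 pairs were among them, all with Lum the lower partner in CKO. The pairs share genes and are not independent. Without Lum, 6 of 28 pairs did not overlap, and each of those 6 had Omd or Ogn as the higher partner in CKO.

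**Figure D5:**
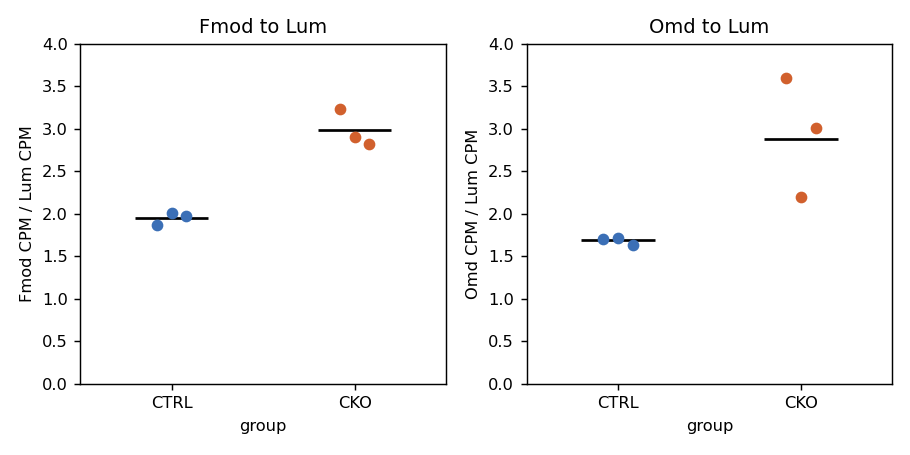
Ratio of Fmod to Lum (left) and of Omd to Lum (right) in CPM for each library, with a bar at the geometric mean of each group (n = 3). The CTRL points lie between 1.64 and 2.01 in both panels, and all CKO points lie above the CTRL points of the same panel.

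Markers of the labelled cell type and of others were read beside the members, and 0 markers of any list passed the threshold. All 11 chondrocyte markers were tested and none was at 0. Of these, 9 had a log2 fold change above 0 (median 0.22), and 4 had an unadjusted p under 0.05 beside 6.5% of all genes. Their summed level was 48139 to 51294 CPM in CTRL and 47782 to 55849 CPM in CKO, and Cilp, a cartilage matrix gene, made up a large part of it at 21661 ± 2035 CPM in CTRL and 19187 ± 992 CPM in CKO. Acan, which encodes aggrecan, the large cartilage proteoglycan, was at 1273, 1322 and 1440 CPM in CTRL and 708, 949 and 989 CPM in CKO. Its groups did not overlap, with a log2 fold change of -0.61 ± 0.13 (unadjusted p = 0.0012, edgeR adjusted p = 0.535). Cnmd, the chondromodulin gene, was without overlap in the other direction at 0.33 ± 0.10. Of 6 superficial zone markers, 2 had a log2 fold change above 0 and 4 had one below (median -0.04). There 2 had an unadjusted p under 0.05 (edgeR), beside 6.5% of all genes. These were Clu at -0.46 ± 0.11 and Abi3bp at 0.29 ± 0.08, each without overlap between the groups. The sums of the 6 overlapped, at 9258 to 11045 CPM in CTRL and 8819 to 9761 CPM in CKO. The 9 osteoblast and osteocyte markers were also high in sum but not one by one, with Sp7 at 90.4 CPM on average. Of these markers, 8 of 9 had a log2 fold change above 0 (median 0.26, 1 with an unadjusted p under 0.05). Their sum was 27193 to 30526 CPM in CTRL and 30746 to 34196 CPM in CKO, without overlap by a narrow margin, in the same direction as Omd. Within CTRL that sum was highest in CTRL 1, where Omd was lowest. Ibsp, a bone sialoprotein gene, made up most of the sum at 24417 ± 1173 CPM in CTRL and 27838 ± 3045 CPM in CKO. Its own groups overlapped, with CTRL 1 at 25513 CPM and CKO 3 at 24365 CPM. The 10 fibroblast and tendon markers, of which 9 were tested, summed to 781 to 850 CPM in CTRL and 567 to 713 CPM in CKO, with 8 of 9 below 0 (median -0.33, 1 with an unadjusted p under 0.05), in the same direction as Lum. Within CKO that sum was highest in CKO 1, where Lum was lowest. In CKO 1 Fap, at 322 CPM, and Pdgfra, at 193 CPM, made up much of the 713 CPM. Several less abundant markers of the list were instead lowest in CKO 1 among the CKO libraries. Tnmd, a defining tendon gene, was at 0 to 2.19 CPM in all libraries. Skeletal muscle markers summed to 1245 CPM in CTRL 2 and to 14.1 to 203 CPM elsewhere. CTRL 2 was also the CTRL library with the highest level of every tested member, by a small margin for Bgn and Chad. A link between the muscle markers and the members was not tested. All 6 macrophage and all 5 adipocyte markers lay below 0 and all 5 erythroid markers above 0, and these sums overlapped for each of the 3 lists. Endothelial sums, at 18.9 to 38.7 CPM over the 6 libraries, overlapped as well. So did the pericyte and smooth muscle sums, at 62.8 to 183 CPM. The part of these cells in the results was not tested, and in bulk tissue fewer cells of a type cannot be told apart from less RNA per cell.

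Family genes outside the 10 were mostly low. Ecm2, which begins the chromosome 13 group, was at 345 ± 39.9 CPM in CTRL and 370 ± 4.14 CPM in CKO, and Chadl, a chondroadherin-like gene, was at 191 ± 7.64 CPM in CTRL and 222 ± 15.4 CPM in CKO. Chadl had a log2 fold change of 0.21 ± 0.08 and did not overlap between the groups, and 19.5% of its exon bases are shared with L3mbtl2 on the other strand, which stood at 21.4, 19.1 and 20.9 CPM in CTRL and 18.6, 24.9 and 16.6 CPM in CKO. Podn, a podocan gene, measured 2.78, 1.84 and 2.05 CPM in CTRL and 1.55, 1.55 and 1.30 CPM in CKO, without overlap and with a log2 fold change of -0.60 ± 0.41. Of the 5 other family genes tested, Chadl and Podn were thus the 2 without overlap, in opposite directions, beside 12.3% of all genes. Podnl1 and Tsku stood at 10.2 and 3.07 CPM on average. Of these 5 tested genes 0 passed the threshold, and 1, Chadl, had an unadjusted p under 0.05 (edgeR). Kera, which encodes the corneal protein keratocan and lies between Lum and Epyc, had 5, 14 and 22 reads in CTRL and 0 in each CKO library. Optc had 0 to 16 reads per library and Nyx had 0 in all.

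Genes that work with the family were read from the same fit. Of 16 collagens that the family binds, 0 passed the threshold and 7 had an unadjusted p under 0.05 (edgeR) beside 6.5% of all genes, with 11 above 0 and 5 below (median 0.05). Col2a1, the main cartilage collagen, was at 14840 ± 429 CPM in CTRL and 17598 ± 2603 CPM in CKO. Col9a1 and Col9a3, chains of a collagen on the surface of cartilage fibrils, had log2 fold changes of 0.53 ± 0.17 and 0.41 ± 0.14. Col3a1, a collagen of fibrous tissue, measured 2251, 2381 and 2025 CPM in CTRL and 977, 2082 and 1114 CPM in CKO. Its log2 fold change was -0.67 ± 0.25, and CKO 2 was the CKO library nearest to CTRL, as for Lum.

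Of 24 genes for glycosaminoglycan chain synthesis and sulfation, 0 passed and 0 had an unadjusted p under 0.05, with 12 above and 12 below 0 (median 0.02). Xylt1, which starts the chains, had a log2 fold change of 0.23 ± 0.10, Csgalnact2 had 0.21 ± 0.09 and Chpf had -0.22 ± 0.10. Of 14 proteases that cut the core proteins, 13 were tested, 0 passed and 4 had an unadjusted p under 0.05 beside 6.5% of all genes, with 4 above and 9 below 0 (median -0.08). Adamts4, an aggrecanase, was at 9.77 ± 2.77 CPM in CTRL and 2.81 ± 1.74 CPM in CKO (edgeR adjusted p = 0.658). Mmp13, a collagenase that cleaves fibromodulin, was at 1013 ± 533 CPM in CTRL and 503 ± 197 CPM in CKO, and Mmp14 and Adamts1 had log2 fold changes of -0.45 ± 0.16 and 0.44 ± 0.16. Of 20 growth factor and receptor genes 0 passed and 0 had an unadjusted p under 0.05, with 10 above and 10 below 0 (median 0.00), and Tgfbr3, a co-receptor of TGF-beta, was at 521 ± 35.7 CPM in CTRL and 523 ± 53.1 CPM in CKO.

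For the member with the smallest p and for the most abundant member, the genes with the most similar pattern over the 6 libraries were sought among 8870 others with a mean of at least 10 CPM. The measure was the mean absolute difference of log2(CPM + 0.5), centred on each gene's mean. For Omd these were Atp1b2 (difference 0.02), Csgalnact2 (0.03) and Dyrk1a (0.04). For Chad they were Trim44, App and Rora, each at 0.02. With 6 libraries and this many genes, close matches arise for many genes.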

How the data were processed

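The authors deposited raw read counts for each Ensembl gene in each library. Per the submitters' processing notes, which name tools without their roles, the build was GRCm38 and the tools included the aligner HISAT2 2.2.1, the read counter featureCounts 2.0.1 and DESeq2 1.30.1. Annotation release, strand option and handling of multi-mapped reads were not found there or in the labels. Library totals were 22664828 to 31014996 reads. Symbols were found for 55141 of 55401 identifiers, and coordinates and lengths come from GENCODE on GRCm38. A second deposited table holds the same counts divided by a constant per library and was not used.

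Genes were filtered with filterByExpr (16260 kept), TMM-normalised and fitted in edgeR 4.0.16 under R 4.3.3 (glmQLFit and glmQLFTest, group only, 4 residual degrees of freedom), with Benjamini-Hochberg adjusted p under 0.05 over all genes. The SE is the log2 fold change divided by the square root of F. Values are CPM on TMM-scaled library sizes. Within groups, chi-square per degree of freedom between libraries was 31.4 to 36.5, so none was counted as a duplicate. The test was checked on simulated counts. Alternatives were RLE factors, library sizes alone, 2 other filters, DESeq2 1.42.0, limma-voom (limma 3.58.1), a replicate block and leaving out each library; principal transcript lengths and the member ratios were added after seeing the data. The members and gene lists were chosen with earlier results of these data known. All members are named; of each list, the 3 tested genes with the smallest p and the most abundant are those eligible to be named, and Tnmd was added as a defining marker after its values were seen.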

Additional observations from a re-analysis of the deposited data

How the results depend on the processing

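The number of members past the threshold was 0 under all 13 alternatives. Genes past the threshold numbered 1 by default, 3 with no filter, 91 with DESeq2 and 1 to 2 with single libraries left out (2 without CTRL 3). DESeq2 and the unfiltered fit gave p-values for more genes, and the cause of the different counts was not tested. The members' median log2 fold change of 0.02 ranged from -0.13 (without CKO 2) to 0.092 (without CKO 1). Directions turned for members near 0 when a library was dropped: Aspn (-0.68 to 0.27) to 0.037 without CTRL 2 and 0.27 without CKO 1, Prelp (-0.16 to 0.0048) to 0.0048 without CTRL 2, Bgn (-0.019 to 0.092) to -0.0091 without CKO 2 and -0.019 without CKO 3, and Fmod (-0.13 to 0.22) to -0.13 without CKO 2. Dcn, Lum, Omd, Ogn and Chad kept their direction under all 13, with Dcn (-0.11) at -0.016 without CKO 1 and -0.20 without CTRL 3, and Chad (0.09) at 0.042 without CTRL 1 and 0.11 without CTRL 3. For Lum the adjusted p ranged from 0.192 to 0.869, and for Omd from 0.396 to 0.909. With the replicate block 1 gene and 0 members passed and the members' median was 0.018; it changed no call. With the block, Lum, Omd and Ogn had unadjusted p of 0.0052, 0.019 and 0.040 (edgeR), and an adjusted p of 0.817 each. Correlations of the deviations of same-numbered libraries were -0.024, 0.091 and 0.034. Those of different-numbered libraries were -0.089 to 0.065. All were weak, so the numbers were not taken as pairs. The log2 change of the summed level was 0.032, and -0.010 to 0.071 when each library was dropped in turn. Epyc was tested in 6 of the alternatives, with log2 fold changes of 4.80 to 7.08 and adjusted p-values of 0.313 to 0.855. Its reads were 12 in CKO 1, 44 in CKO 2 and 1 in CTRL 1, so these sizes rest on few reads. Few reads limit Epyc, Kera and Optc, and the spread within CKO limits Aspn, Fmod and Lum.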
